A study of Mus musculus with 33 samples.

Results

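Lyve1, Folr2, Cbr2, Pf4, Apod and Igfbp4, 6 genes used to mark macrophages that lie along blood vessels, were followed through every sample. They were taken by name, and all 6 were found among the 32285 genes of the count matrices. The study applied SAMENT, in which injected cells bring an enzyme into a tissue that puts biotin on the cells beside them, and sorted the cells of each mouse tissue into biotin positive and biotin negative samples for single-cell RNA sequencing. Injection into the heart gave bone, brain, liver and lung tissue with 4 samples of each sort, 32 in all, with CellPlex 3' libraries. A second bone experiment, labelled IIA, an abbreviation that the labels leave unexpanded, gave 6 biotin positive and 6 biotin negative samples that were hashtagged into 1 TotalSeqC 5' library. In both experiments all samples, biotin negative ones included, came from injected, substrate-labelled animals, so a negative sample is the unlabelled rest of a tissue that holds injected cells and not a healthy tissue. The sources used here give no age, strain or sex of the mice, and the labels do not say that numbered samples came from separate animals, so p-values measure the spread between these samples.

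Levels are given as CPM: the unique molecular identifiers (UMIs) of a gene in a sample, divided by all UMIs of the cells counted and multiplied by 1000000. The samples held 482617 to 44834665 UMIs in the cells kept, and between 2532 and 11313.5 UMIs in the median cell. Liver positive sample 4 held 94 cells, fewer than any other sample. Positive samples 2 of brain, liver and lung stood apart in their makeup: 74.8%, 80.1% and 79.9% of their cells fell in 1 macrophage cluster each. No pair of samples shared more than 0.909% of cell barcodes. Cluster names mean resemblance to a cell type by marker genes. The tissue labels fitted the resident cells found, since 418 of the 453 cells of the microglia cluster came from biotin positive and 34 from biotin negative brain, and 3777 of the 3844 cells of the larger alveolar macrophage cluster came from biotin positive lung.

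Resident macrophages of the vessel wall and the brain borders are known for scavenger receptors and for taking up material from blood and interstitial fluid. Lyve1 encodes a hyaluronan receptor that is also carried by lymphatic and liver sinusoidal endothelium. Folr2 encodes folate receptor beta, Cbr2 a carbonyl reductase, and Pf4 the chemokine platelet factor 4, which megakaryocytes load into platelets in large amounts. Apod encodes apolipoprotein D, a lipocalin that carries small lipids and is made by fibroblast-like and perivascular cells, and Igfbp4 encodes a secreted protein that binds insulin-like growth factors.

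All 6 genes are protein coding in the GENCODE annotation of GRCm38, the assembly that mm10 names. Lyve1 lies at chr7:110850607-110863239 on the minus strand, and Folr2 on the same chromosome and strand at chr7:101839988-101857194. Cbr2 lies at chr11:120729489-120732114 on the minus strand, Igfbp4 at chr11:99041244-99054392 on the plus strand, Apod at chr16:31296192-31314808 on the minus strand and Pf4 at chr5:90772435-90773383 on the plus strand. RefSeq promoters on GRCm38.p6, each from 250 bases before to 50 bases after a start site, were found for 5 of the 6 members. The promoters of Cbr2, Pf4 and Folr2 are printed because these genes had correlated levels across clusters, as given further on. Capitals mark GAGGAA on either strand, the core letters bound by PU.1, a transcription factor of the macrophage lineage.
Cbr2, chr11:120731972-120732271, minus strand: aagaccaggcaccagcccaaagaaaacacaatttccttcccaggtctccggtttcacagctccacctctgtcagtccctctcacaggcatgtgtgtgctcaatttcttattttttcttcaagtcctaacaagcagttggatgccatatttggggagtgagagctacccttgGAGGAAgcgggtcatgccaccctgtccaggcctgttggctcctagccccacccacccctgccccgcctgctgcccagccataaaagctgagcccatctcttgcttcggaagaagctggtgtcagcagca
Pf4, chr5:90772185-90772484, plus strand: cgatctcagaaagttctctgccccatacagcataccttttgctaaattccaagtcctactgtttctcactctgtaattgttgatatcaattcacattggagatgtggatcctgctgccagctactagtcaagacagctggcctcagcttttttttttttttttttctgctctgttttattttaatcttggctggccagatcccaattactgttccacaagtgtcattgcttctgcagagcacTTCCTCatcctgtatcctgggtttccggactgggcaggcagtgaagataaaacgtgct
Folr2, chr7:101857141-101857440, minus strand: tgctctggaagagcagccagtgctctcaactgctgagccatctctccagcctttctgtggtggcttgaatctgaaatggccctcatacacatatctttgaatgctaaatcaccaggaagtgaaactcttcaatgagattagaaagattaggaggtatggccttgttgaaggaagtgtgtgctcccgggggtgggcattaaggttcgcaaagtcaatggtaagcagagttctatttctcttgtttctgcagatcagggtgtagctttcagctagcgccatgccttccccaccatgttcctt
Of the 32851 RefSeq promoters of this length, 28.3% hold GAGGAA on at least 1 strand. Cbr2 and Pf4 held 1 match each, Apod 2, and neither of the promoters listed for Folr2 held one. The letters TGCTGA, which are part of MAF binding sites and occur in 19.5% of promoters, were found once in Cbr2 and once in each Folr2 promoter. AGATAA, the letters of a GATA site, occur in 11.2% of promoters and were found in Pf4. CACGTG, an E-box found in 7.15% of promoters, was in none of these windows. Each motif was searched on both strands, and a match of TGCTGA can share its last letters with the start of GAGGAA. These matches describe the letters only.

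In brain, the 4 macrophage-type members Lyve1, Folr2, Cbr2 and Pf4 were higher in every biotin positive than in every biotin negative sample. The share of all genes that separate the sorts in this way was not counted. Lyve1 read 104, 983, 55.7 and 43.4 CPM in positive samples 1 to 4 and 1.27, 6.72, 2.46 and 2.65 in negative samples 1 to 4. Folr2 read 32.1, 149, 15.1 and 17.4 against 0.658, 3.43, 1.89 and 0.767. The groups did not overlap for either gene, and positive sample 2 was the highest for both. Over all kept cells, edgeR's quasi-likelihood test with Benjamini-Hochberg adjustment called 3.06% of 11064 genes (2.88% higher), and 2 of the 6 members: Lyve1 was higher by 6.13 ± 1.24 on the log2 scale (SE, positive minus negative, as in all later differences; adjusted p = 0.0363) and Folr2 by 4.77 ± 0.931 (adjusted p = 0.0338).

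Cbr2, at 55.7, 372, 23.3 and 43.2 against 1.21, 8.43, 3.78 and 0.977, and Pf4, at 345, 1449, 111 and 97.9 against 9.87, 36.4, 14.4 and 6.45, did not overlap between sorts either. Their differences of 4.83 ± 1.10 and 4.56 ± 1.02 had edgeR adjusted p-values of 0.053 and 0.0501. Apod read 63.7, 378, 179 and 229 against 0.86, 24.6, 1.14 and 0.698, where negative sample 2 stood above the other negatives, and its difference of 4.61 ± 1.28 had an adjusted p of 0.0866. Igfbp4, at 102, 100, 6.02 and 48.9 against 64.9, 8.83, 18.9 and 25.4, overlapped (0.89 ± 0.75, adjusted p = 0.529). Same-numbered brain samples deviated together, and with the replicate number as a block 869 genes in place of 339 were called, with adjusted p = 0.00873 for Cbr2, 0.00963 for Pf4 and 0.0125 for Apod. The Lyve1 call was lost without positive sample 4 (adjusted p = 0.0633) or without negative sample 1, 2, 3 or 4 (0.0925, 0.0531, 0.0959 and 0.141), while DESeq2 gave Lyve1 no adjusted p (difference 6.06). Without positive sample 2 the differences were 4.09 for Lyve1 and 3.51 for Folr2, both called (adjusted p = 0.0295 and 0.039). The Folr2 call was lost without positive sample 4 (0.0645) or negative sample 1, 3 or 4 (0.0887, 0.0852 and 0.138). Without negative sample 2, Apod was higher by 7.62 (adjusted p = 0.0143) and Cbr2 by 5.83 (0.0482), and without positive sample 1 the adjusted p was 0.0411 for Cbr2 and 0.0447 for Pf4.

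**Figure D1:**
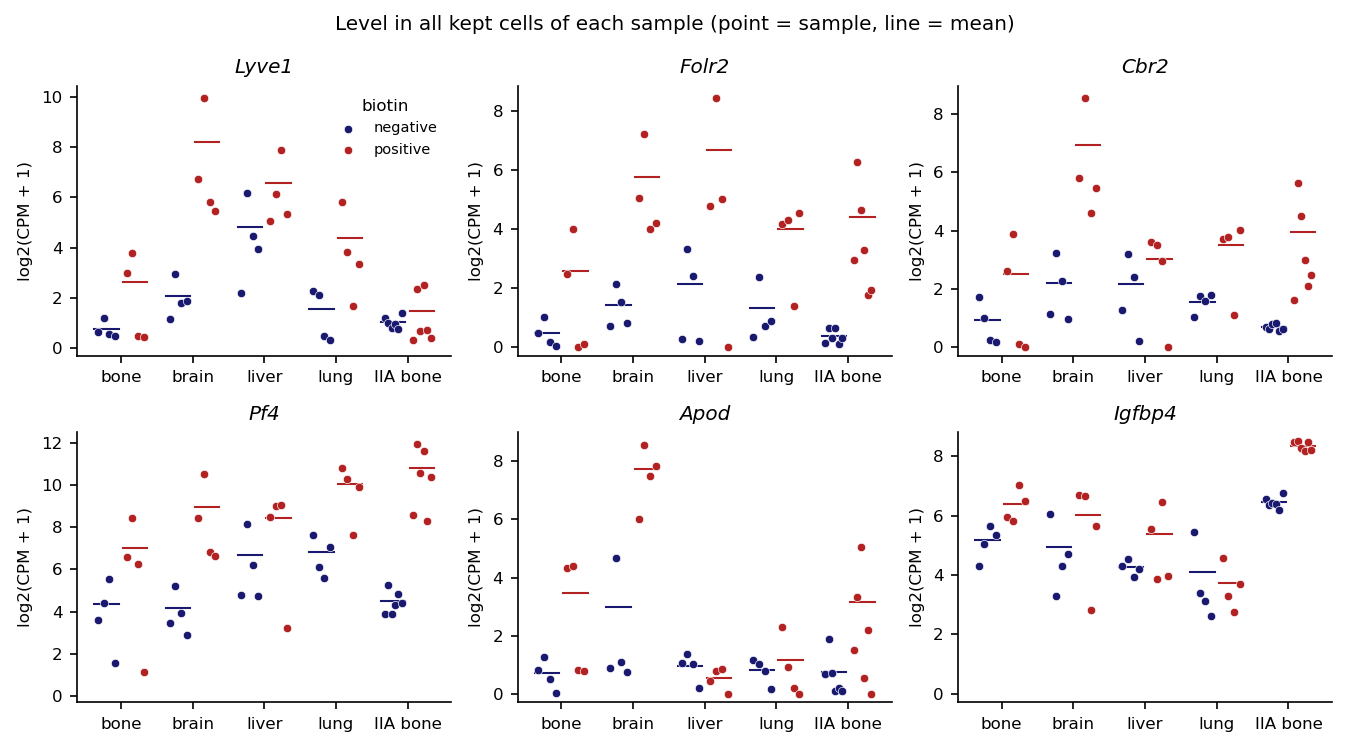
Levels of the 6 genes in every sample, as log2 of CPM plus 1 over all kept cells, by tissue and sort (red, biotin positive; dark blue, biotin negative; lines, log2 of the mean of the linear values plus 1). In brain, all 4 positive samples lie above all 4 negative samples for Lyve1, Folr2, Cbr2, Pf4 and Apod, while Igfbp4 overlaps.

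The number of cells of 1 kind moved with the brain difference. A macrophage cluster led by Ptgds, Ccl12 and Ccn1, with Cbr2 and Lyve1 among its leading genes although members were left out of the clustering genes, made up 32.1%, 74.8%, 5.81% and 9.57% of the cells of positive samples 1 to 4. In the negative samples its share was 0.0977%, 1.24%, 0.911% and 0.56%. In the pooled positive brain cells this cluster held 34.6% of the cells and gave 97.9% of Lyve1 UMIs (3817 of 3900), 93.4% of Folr2 (675 of 723), 89.6% of Cbr2 (1498 of 1671) and 91.9% of Pf4 (6271 of 6823). In the negative cells it held 0.617% of the cells and gave 63.6% of Lyve1, 50.7% of Folr2, 41.2% of Cbr2 and 19.3% of Pf4 UMIs. Apod had several sources in positive brain: this cluster gave 43.3%, a stem or progenitor cluster led by Clu and Cpa3 27.8%, and an endothelial cluster led by Ly6c1 and Epas1 26.2%. Markers of other cell types moved with the sort: the summed level of 22 endothelial genes, of which up to 21 were detected, was 131 to 799 CPM in positive and 27.2 to 148 in negative brain. The 7 choroid plexus genes summed to 0.753 to 507 against 0.523 to 3.95 and the 18 fibroblast or stromal genes to 240 to 1034 against 130 to 230. Their part in the results was not tested.

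**Figure D2:**
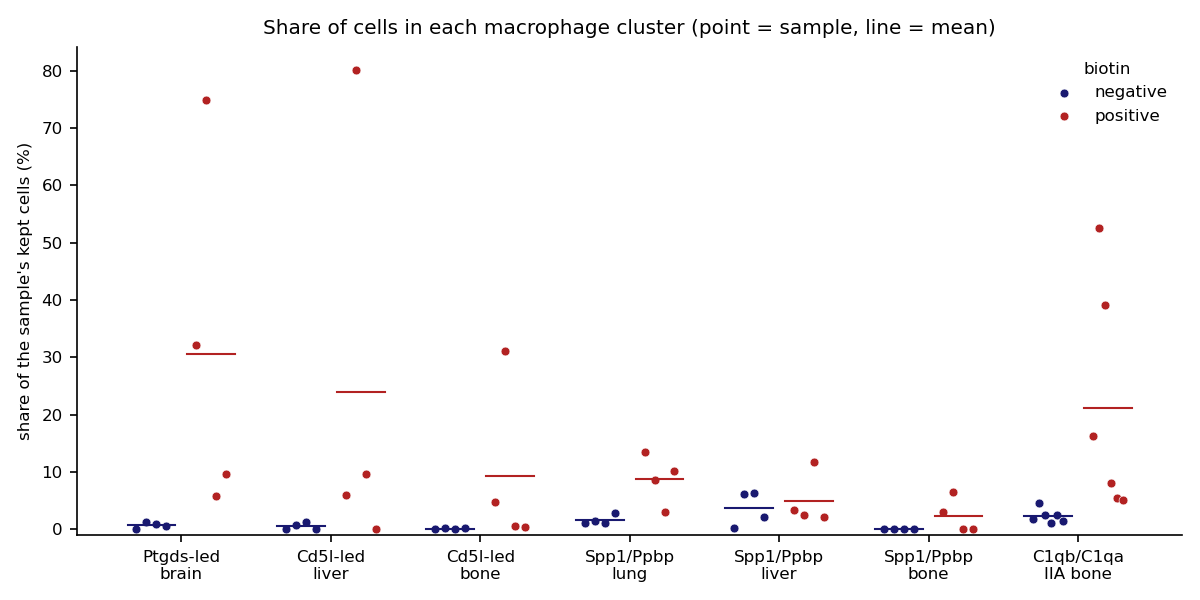
Share of each sample's kept cells, in percent, that fell in each macrophage cluster, by tissue and sort (red, biotin positive; dark blue, biotin negative; 1 point a sample; lines, means). The Ptgds-led cluster took 5.81% to 74.8% of positive and at most 1.24% of negative brain cells.

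Among brain mononuclear phagocytes (cells of macrophage, microglia, alveolar macrophage and monocyte clusters), all 6 members rose in the biotin positive samples, and in no case did the 4 positive and 4 negative samples overlap. How many of all genes were free of such overlap was not counted. The positive samples held 1246 of these cells, of which 764 belonged to the Ptgds-led cluster and 418 to microglia, whereas the 1299 negative cells were mostly in monocyte clusters (528 and 449 cells) with 46 in the Ptgds-led cluster, so the comparison spans different clusters. Lyve1 read 469, 1306, 127 and 91.8 against 3.19, 26.7, 4.56 and 17 (5.11 ± 1.04, edgeR adjusted p = 0.00384). Folr2 read 131, 194, 32.9 and 35.6 against 2.05, 8.06, 4.05 and 5.29 (4.21 ± 0.69, adjusted p = 0.00139). Positive samples 1 and 2 were the higher pair for both receptors, which take up hyaluronan and folate.

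The enzyme and chemokine genes rose as well. Cbr2 read 248, 485, 51.4 and 45.2 against 3.19, 20.5, 6.08 and 5.57 (4.46 ± 0.911, edgeR adjusted p = 0.00395), and Pf4 1490, 1862, 150 and 187 against 12.5, 45.3, 11.7 and 18.4 (5.18 ± 0.947, adjusted p = 0.00233). The secreted carriers did so too: Apod read 108, 445, 18.5 and 9.03 against 0.228, 2.48, 0.507 and 0.278 (7.56 ± 1.49, adjusted p = 0.00336), and Igfbp4 130, 122, 10.3 and 25.1 against 8.21, 4.96, 7.6 and 9.74 (2.97 ± 0.67, adjusted p = 0.00644). Apod passed the count filter here through the positive samples alone, so its fitted difference rests on few negative UMIs and is no bound. Igfbp4 had the narrowest gap, 10.3 in positive sample 3 beside 9.74 in negative sample 4. In this comparison 40.7% of 9125 genes were called, 20.2% as higher, so being called was common, and the 6 members are read against that share.

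Within the Ptgds-led cluster alone, compared after the data had been seen and as 1 of 7 such added cluster comparisons, no member was called. Lyve1 read 798, 1448, 1267 and 822 in positive samples 1 to 4 and 806, 374 and 869 in negative samples 2 to 4, which held 44 cells in all, and the groups overlapped (0.61 ± 0.331, edgeR adjusted p = 0.85). Folr2, at 223, 216, 332 and 321 against 169, 250 and 282 (0.20, adjusted p = 0.999; -0.05 without negative sample 2), and Cbr2, at 409, 538, 519 and 386 against 488, 291 and 369 (0.22, adjusted p = 0.965), overlapped too. Pf4 did not overlap, at 2518, 2062, 1516 and 1653 against 1013, 582 and 1130, but its difference of 1.07 ± 0.283 had an adjusted p of 0.549. Apod read 180, 492, 187 and 59.7 against 18.8, 41.6 and 21.7 and was too sparse to be tested. No gene of 768 was called (0%), with 41 at an unadjusted p under 0.05. Within the macrophage and microglia clusters of brain as a whole, again 0% of 5714 genes were called by edgeR and 178 had an unadjusted p under 0.05; Lyve1 read 657, 1337, 152 and 95.2 against 478, 144 and 307 in negative samples 2 to 4. With the replicate block, 33 genes were called there.

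In liver, most Lyve1 and most Folr2 UMIs of the positive samples came from different clusters. Over all kept cells, Lyve1 read 32.1, 69.6, 235 and 39.4 in positive samples 1 to 4 and 3.53, 70.7, 20.9 and 14.3 in negative samples, which overlapped (1.55, edgeR adjusted p = 0.475). An endothelial cluster led by Clec4g, a gene of liver sinusoidal endothelium, gave 87.0% of Lyve1 UMIs in positive and 96.4% in negative liver. Folr2 read 26.9, 347, 31.8 and 0 against 0.202, 8.98, 4.31 and 0.157, with the 94-cell positive sample 4 at 0 of its UMIs, which allows up to 6.22 CPM (4.61 ± 1.49, adjusted p = 0.25). A macrophage cluster led by Cd5l, Vcam1 and Clec4f, genes of Kupffer cells, gave 92.8% of Folr2 UMIs in positive liver (2579 of 2780) and 38.6% in negative liver (59 of 153), where the Spp1/Ppbp cluster described with lung gave 30.7%. The Cd5l-led cluster, which also gave 9.68% of the Lyve1 UMIs of positive liver, held 6.06%, 80.1%, 9.69% and 0% of the positive and 0%, 0.722%, 1.29% and 0.0789% of the negative samples' cells.

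Of the other members in liver, Pf4 read 361, 508, 524 and 8.29 against 26.6, 284, 72.3 and 25.8 (1.5, edgeR adjusted p = 0.546) and Igfbp4 45.4, 13.5, 88.3 and 14.5 against 18.7, 22.1, 14.2 and 17.4 (0.97, adjusted p = 0.452). Cbr2 was at or under 11.3 in every positive sample and Apod at or under 0.807. Liver gave 0% of 11854 genes called over all cells, with 1571 at an unadjusted p under 0.05, 560 called by DESeq2 and 2 with the replicate block. The 22 endothelial genes summed to 659 to 2352 CPM in positive and 109 to 649 in negative liver, and their part in the Lyve1 values was not tested.

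In liver mononuclear phagocytes 3.49% of 9792 genes were called and no member was. Folr2 read 50.6, 399 and 273 in positive samples 1 to 3 against 0, 16.2, 5.81 and 0 (5.07 ± 1.19, edgeR adjusted p = 0.0522), without overlap. Lyve1 was low here, at 0.937, 26.6 and 10.4 against 0.299, 3.97, 0.323 and 0 (3.26 ± 1.11, adjusted p = 0.121), and Pf4 read 70.3, 379 and 23.4 against 16.5, 32.7, 11.9 and 40.1 (2.48 ± 0.767, adjusted p = 0.104). Same-numbered liver samples deviated together, and with the replicate block 644 genes in place of 342 were called, with adjusted p = 0.000946 for Folr2, 0.0281 for Lyve1 and 0.0169 for Pf4. Without positive sample 1 the adjusted p was 0.00499 for Folr2, 0.0083 for Lyve1 and 0.0189 for Pf4. The Cd5l-led macrophages made up 976 of the 1289 positive phagocytes, against 1107 of 2173 negative ones in a monocyte cluster. Within the liver macrophage classes (3 against 2 samples) 0% of 4367 genes were called by edgeR, 118 had an unadjusted p under 0.05, DESeq2 called 1 and the replicate block 83, and Folr2 differed by 0.27 with an adjusted p of 1. That value was 1.29 with the members among the clustering genes, 2.33 without platelet-bearing cells and -0.17 without the top 5% of doublet scores, none of them called.

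In lung, Pf4 and Cbr2 rose in biotin positive cells. Pf4 read 1812, 1243, 196 and 961 in positive samples 1 to 4 and 194, 68.1, 47.4 and 134 in negative samples, with positive sample 3 just above the highest negative (2.95 ± 0.646, edgeR adjusted p = 0.0161; 2.50, 0.00623 without cells that held a platelet gene). The platelet gene Ppbp read 267, 43.2, 14.3 and 70.6 against 22.7, 6.71, 0.521 and 14.96 and overlapped (2.82 ± 1.03, edgeR adjusted p = 0.0866). Cbr2 read 12, 12.9, 1.18 and 15.2 against 1.04, 2.38, 1.98 and 2.44 and overlapped through positive sample 3 (2.08 ± 0.631, adjusted p = 0.0498). This is beside 18.3% of 12331 genes called in lung, 11.5% as higher. The Cbr2 call lay at the threshold and was lost in 9 of its 14 alternatives, among them the one without cells that held a platelet gene (1.73, adjusted p = 0.0801) and 7 that left out 1 sample (adjusted p from 0.0648 to 0.113).

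Folr2, at 17.2, 18.7, 1.62 and 22.5 against 0.259, 4.25, 0.626 and 0.857, and Lyve1, at 55.3, 13.1, 2.2 and 9.31 against 3.8, 3.4, 0.417 and 0.264, overlapped in lung through positive sample 3 and missed the threshold (2.93 ± 0.94, edgeR adjusted p = 0.0595, and 3.02 ± 1.04, adjusted p = 0.0735); DESeq2 gave adjusted p-values of 0.00643 and 0.0103, and without negative sample 2 or positive sample 3 that of Folr2 was 0.0137 or 0.0387 in edgeR. Apod (0.61, edgeR adjusted p = 0.672; -0.95 without positive sample 1 and -0.18 with the replicate block) and Igfbp4 (-0.60, adjusted p = 0.537; 0.48 without negative sample 1) overlapped as well. An endothelial cluster gave 78.7% of lung positive Lyve1 UMIs. The 22 endothelial genes summed to 244 to 1239 CPM in positive and 33.0 to 101 in negative lung, and their part in the Lyve1 values was not tested. Alveolar macrophages, 3777 of the 4190 positive lung phagocytes, held little of the members, while 1380 of the 1852 negative ones belonged to a monocyte cluster. Among lung phagocytes Pf4 read 15.9, 19.1, 11.2 and 8.6 against 10.6, 12.3, 2.8 and 3.82 (0.70 ± 0.429, adjusted p = 0.205, where 47.8% of genes were called). In the lung macrophage classes only negative sample 2 held enough cells, so no test of a member is given (with that lone sample assumed to vary like the others, 0.150% of genes were called): its Folr2 level was 75.7 beside 1.38, 2.7, 0.671 and 0 in the positives. Of its 28 cells in these classes 18 and 4 belonged to the alveolar macrophage clusters and 6 to the Cd5l-led cluster, which gave 19 of the 72 Folr2 UMIs of all negative lung cells, whereas nearly all positive cells of these classes were alveolar macrophages.

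In positive lung the signal of Pf4, Folr2 and Cbr2 sat in a cluster with Pf4, Spp1 and Ppbp among its leading genes, called the Spp1/Ppbp cluster here and left without a cell type because its markers did not settle one. It gave 97.2% of positive lung Pf4 UMIs (77038 of 79288), 88.4% of Folr2 and 67.7% of Cbr2; in negative lung it gave 85.2% of Pf4, 25.0% of Folr2 and 17.7% of Cbr2 UMIs. Of the Cbr2 UMIs of negative lung, a monocyte cluster gave 26.0% and the cluster led by Clu and Cpa3 18.8%. The latter also gave 14.2% of those of positive lung. The share of the Spp1/Ppbp cluster was 13.5%, 8.6%, 3.04% and 10.2% of positive and 1.12%, 1.51%, 1.03% and 2.82% of negative lung cells. Within the Spp1/Ppbp cluster, compared after the data had been seen, Folr2 read 79.6, 106, 26.7 and 108 against 7.06, 6.83, 18.4 and 16.2, without overlap, and rose by 2.65 ± 0.464 (edgeR adjusted p = 0.0364; 0.298% of 5038 genes called, 0.0992% as higher). That call was lost without negative sample 1, 2, 3 or 4 (adjusted p = 0.0982, 0.0857, 0.0969 and 0.124). Pf4 within the cluster read 8828, 8220, 4276 and 4633 against 7325, 864, 2592 and 2905 and overlapped (0.80, adjusted p = 0.539).

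The same cluster in liver gave like directions without a call. Folr2 read 135, 140 and 19.5 in positive samples 1 to 3 against 29.6, 14.1 and 6.84 in the 3 negative samples with enough cells (2.19 ± 0.639, edgeR adjusted p = 0.252), and Pf4 4800, 4579 and 3474 against 2497, 882 and 499 (1.74 ± 0.482, adjusted p = 0.23), where 0.0761% of 5255 genes were called. The Pf4 groups did not overlap and the Folr2 groups did. With the replicate block 306 genes in place of 4 were called, Folr2 with 1.70 (adjusted p = 0.000574) and Pf4 with 1.39 (6.42e-07). Without positive sample 3, Folr2 was higher by 2.68 (adjusted p = 0.00991).

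**Figure D3:**
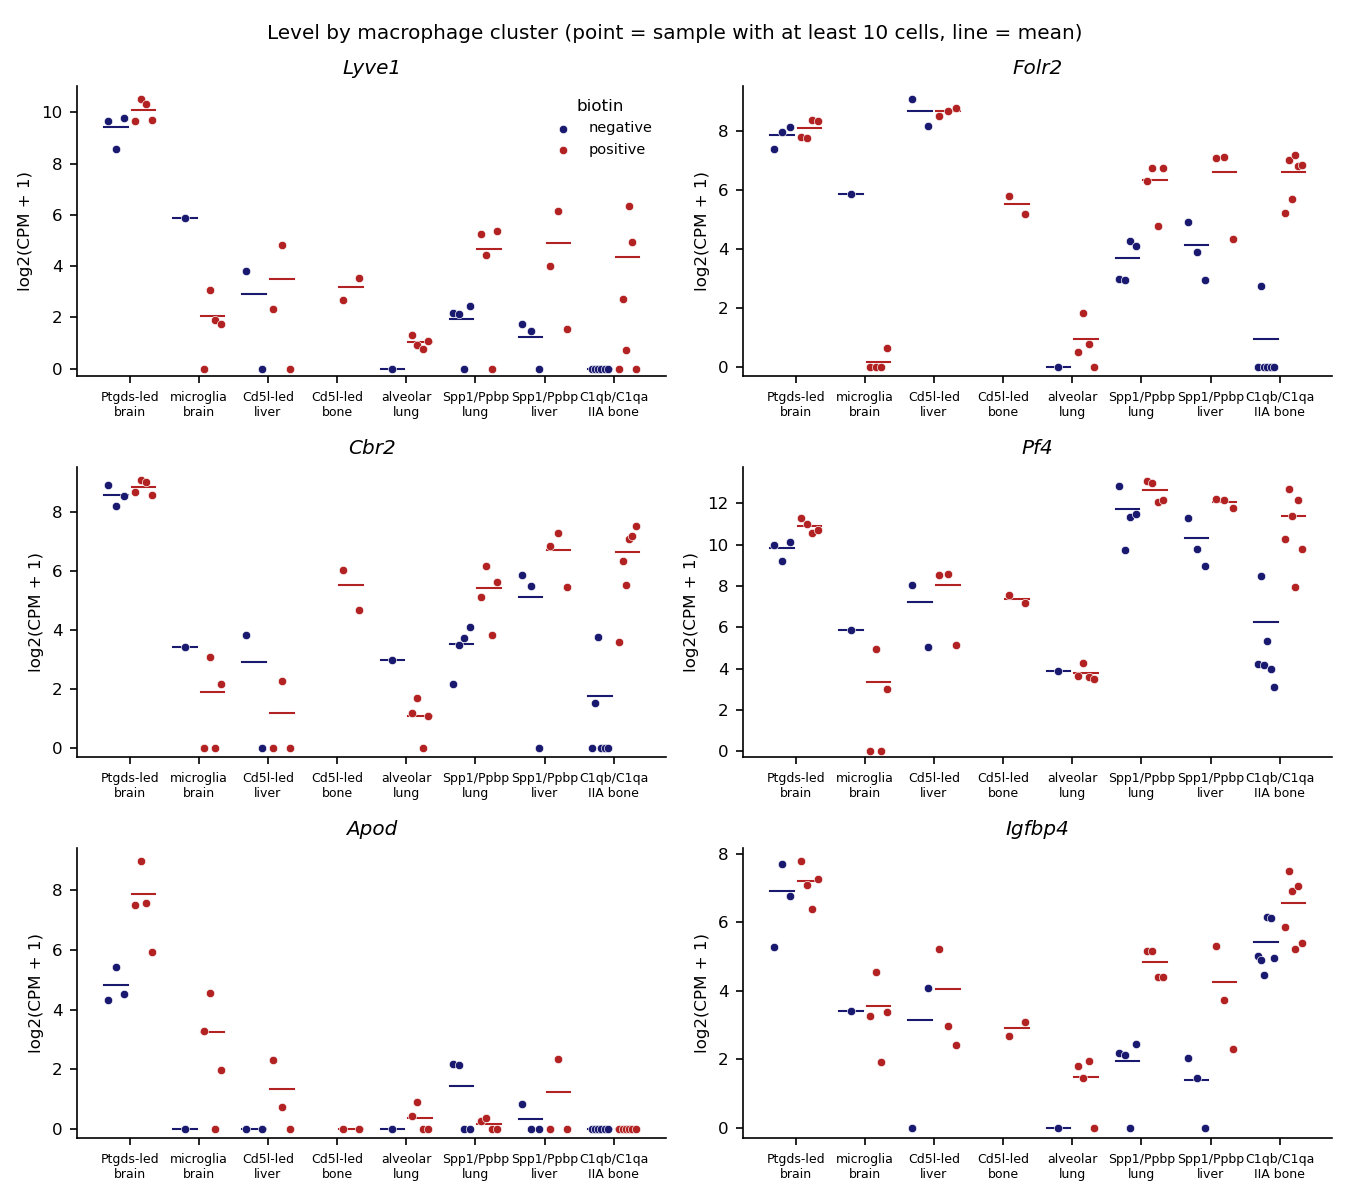
Levels of the 6 genes by macrophage cluster and tissue, as log2 of CPM plus 1, for each sample with at least 10 cells of that cluster (red, biotin positive; dark blue, biotin negative; lines, log2 of the mean of the linear values plus 1). Lyve1, Cbr2 and Apod are high in the Ptgds-led brain cluster, Folr2 is highest in the Cd5l-led liver cluster, and Pf4 is high in the Ptgds-led and Spp1/Ppbp clusters.

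In bone after intracardiac injection, no member was called, and the positive samples split. Lyve1 read 6.93, 12.9, 0.421 and 0.365 in positive samples 1 to 4 against 0.568, 1.31, 0.495 and 0.401 (2.58 ± 1.02, edgeR adjusted p = 0.615). Folr2 read 4.64, 15.2, 0 and 0.073 against 0.379, 1.01, 0.114 and 0.0223 and was too sparse to be tested; the 0 allows up to 0.210 CPM. Apod read 19.2, 20.1, 0.772 and 0.73 against 0.758, 1.42, 0.419 and 0.0223 (3.74 ± 1.25, adjusted p = 0.615). For these genes positive samples 1 and 2 lay above all negatives and samples 3 and 4 among or near them. Pf4 read 95.3, 349, 75.2 and 1.24 against 11.3, 20.6, 45 and 1.99 (2.43, adjusted p = 0.623), and Cbr2 had a difference of 2.25 (adjusted p = 0.657). Igfbp4 was the exception: at 60.5, 55.9, 130 and 89.9 against 18.6, 32.4, 49.7 and 39.7 its groups did not overlap (1.05 ± 0.436, adjusted p = 0.615).

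These bone values stand beside 0% of 12533 genes called by edgeR, 983 at an unadjusted p under 0.05, 120 called by DESeq2 and 17 with the replicate block. The Cd5l-led macrophage cluster held 4.73%, 31.1%, 0.645% and 0.462% of positive bone cells and the Spp1/Ppbp cluster 2.94%, 6.46%, 0% and 0%, so positive samples 1 and 2 also held more of both. In positive bone the Spp1/Ppbp cluster gave 67.4% of Pf4, 49.1% of Folr2, 44.2% of Cbr2 and 33.3% of Lyve1 UMIs, and the Cd5l-led cluster 18.7% of Folr2, 15.5% of Cbr2 and 2.78% of Pf4. Of Lyve1, 6 cells of the Ptgds-led cluster gave 30.3%. Of Igfbp4, a granulocyte precursor cluster gave 67.4% of UMIs in positive and 43.7% in negative bone. The Clu-led progenitor cluster gave 97.2% of the Apod UMIs of positive bone, and 19 of the 66 of negative bone (28.8%). In bone phagocytes 0.0855% of 9355 genes were called. The sorts again held different clusters, with 421 Cd5l-led macrophages among 780 positive cells and 12 among 1883 negative ones, of which 921 and 600 fell in a pair of monocyte clusters. Pf4 read 58.7, 93.5, 0 and 9.64 against 6.68, 8.24, 1.11 and 0.739 (3.28 ± 0.738, edgeR adjusted p = 0.13), without a call. Same-numbered bone samples deviated together, and with the block 207 genes in place of 8 were called, Pf4 among them (3.04, adjusted p = 0.00142).

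In the IIA bone samples, Folr2, Cbr2, Pf4 and Igfbp4 rose in the biotin positive cells, and for each of them all 6 positive samples lay above all 6 negative samples. Separation of this kind was not counted over all genes. Folr2 ran from 2.44 over a median of 7.81 to 76.1 CPM in positive and from 0.0692 over 0.242 to 0.554 in negative samples (5.85 ± 1.02, edgeR adjusted p = 0.000566). Cbr2 ran from 2.08 over 5.76 to 49.0 in positive and from 0.484 over 0.586 to 0.789 in negative samples (4.31 ± 0.79, adjusted p = 0.000796). Positive sample 2 was the highest for both. In all negative samples Folr2 had 20 UMIs and Cbr2 43, so both passed the count filter through the positive samples. Their fitted differences rest on these few UMIs and are no bounds. Pf4 ran from 314 over 1430 to 3950 and from 13.7 over 19.4 to 37.0 (6.11 ± 0.692, adjusted p = 2.81e-05). The platelet chemokine Ppbp moved with it, from 1.56 over 38.3 to 269.7 against 0.0692 over 0.191 to 0.998 (7.48 ± 1.26, edgeR adjusted p = 0.000455), and its part in the Pf4 difference was not tested. Igfbp4, with the least spread, ran from 293 over 333 to 364 and from 71.6 over 85.1 to 108 (1.67 ± 0.106, adjusted p = 2.14e-06).

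Lyve1 and Apod behaved otherwise in the IIA samples. Lyve1 lay between 0.261 and 4.65 in positive and between 0.692 and 1.65 in negative samples, so that the groups overlapped, and Apod between 0 and 32.3 and between 0.059 and 2.66; both were too sparse to be tested. The 4 calls are read against 50.2% of 12625 genes called, 27.0% as higher. A macrophage cluster with C1qb and C1qa among its leading genes gave 98.9% of positive Folr2, 97.4% of Cbr2, 82.0% of Lyve1 and 53.3% of Pf4 UMIs, stromal cells gave 99.7% of Apod, and a granulocyte precursor cluster gave 54.2% of Igfbp4. The macrophage cluster held 16.3%, 52.6%, 39.2%, 8.03%, 5.42% and 5.18% of the cells of positive samples 1 to 6 and between 1.07% and 4.57% of the negative samples' cells. The 7 lymphatic endothelial genes summed to 13.1 to 214 CPM in positive and 5.25 to 12.7 in negative IIA samples and the 16 platelet genes to 86.3 to 723 against 62.7 to 73.1; their part in the results was not tested.

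Among IIA mononuclear phagocytes, where 30.7% of 9565 genes were called, 15.7% as higher, Folr2 lay between 32.6 and 127 in positive samples and at 0 in 5 of 6 negative samples, with 1.96 in the other one (edgeR adjusted p = 9.01e-07). Folr2 passed the count filter there through the positive samples alone, so its fitted difference of 7.54, which was 9.91 without negative sample 2, depends on the prior count and is no bound. Cbr2 (4.92 ± 0.488, adjusted p = 5.63e-06), Pf4 (6.63 ± 0.979, 0.000165) and Igfbp4 (1.77 ± 0.291, 0.00038) rose as well. Macrophages made up 867 of the 959 positive phagocytes, while of the 2058 negative ones 392 were macrophages and 1277 belonged to a monocyte cluster.

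Inside the IIA macrophage cluster 21.0% of 5459 genes were called, 10.6% as higher. Folr2 ran from 36.5 over a median of 114 to 144 in positive samples, and was 5.71 in negative sample 2 and 0 in the other 5, which allows up to 6.39 to 29.9 CPM at their depths (edgeR adjusted p = 7.68e-05). With 3 Folr2 UMIs in all negative samples here, its fitted difference of 5.74, which was 9.07 without negative sample 2, likewise depends on the prior count and is no bound. Pf4 ran from 244 over 1939 to 6665 in positive and from 7.47 over 17.2 to 356 in negative samples, with the high negative, sample 2, above the lowest positive (5.05 ± 0.982, adjusted p = 0.00244). Igfbp4 ran from 36.1 over 87.7 to 179 and from 21.2 over 30.6 to 69.7, with overlap (1.42 ± 0.39, adjusted p = 0.0177). Cbr2 ran from 11.2 over 108 to 183 in positive samples and was 0 in 4 negative samples, with 1.9 and 12.7 in the others, and was not tested. Lyve1 was 81.2 and 29.7 in positive samples 4 and 5, at most 5.55 in the other positives and 0 in all negatives, and no Apod UMI was found in these cells. With the members among the clustering genes, 6 genes in place of 1145 were called, and the differences were 3.13 for Folr2 (adjusted p = 0.209), 2.48 for Pf4 (0.378) and 3.26 for Igfbp4 (0.166). The Igfbp4 call was also lost without negative sample 6 (1.29, adjusted p = 0.0553) or positive sample 2 (1.14, 0.052).

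**Figure D4:**
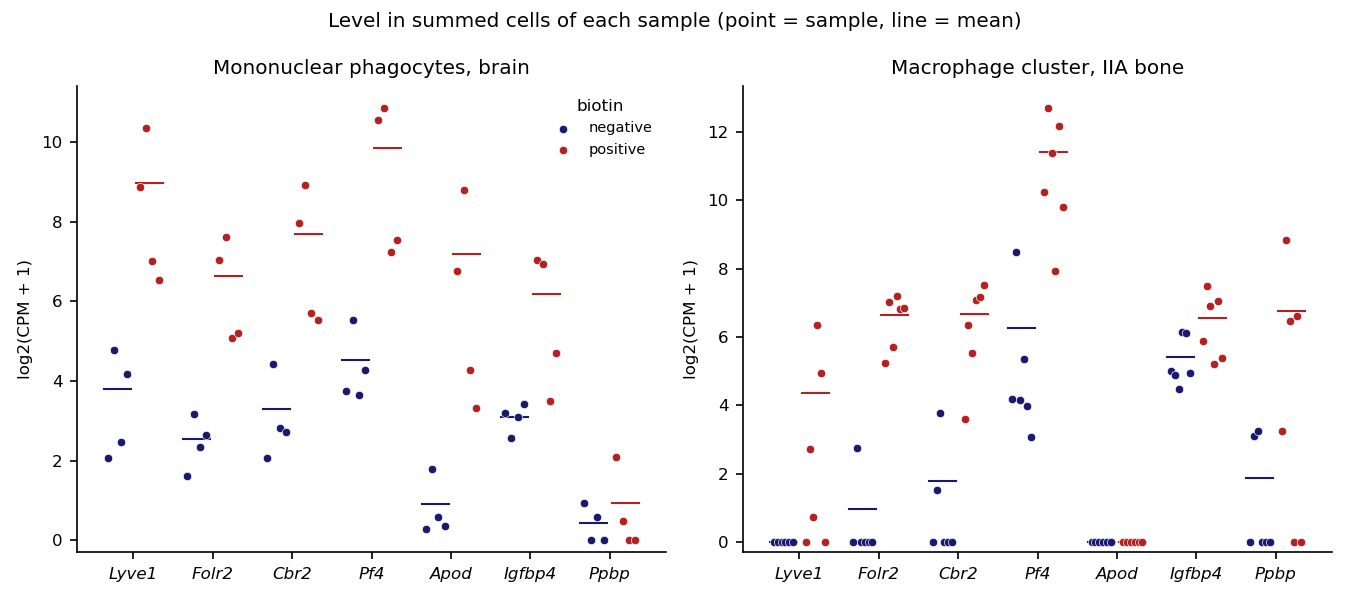
Levels of the 6 genes and of the platelet gene Ppbp, as log2 of CPM plus 1, in brain mononuclear phagocytes (left, 4 samples a sort) and in the IIA macrophage cluster (right, 6 samples a sort); red, biotin positive; dark blue, biotin negative; lines, log2 of the mean of the linear values plus 1. All 6 genes separate the sorts in brain phagocytes, and Folr2 separates them in the IIA macrophages.

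Among the biotin positive intracardiac samples alone, tissues differed in the members. Each tissue was compared with the mean of the other 3, treating samples as independent although samples of one number may share an animal. Brain was higher in Lyve1 by 3.74 ± 0.854 (edgeR adjusted p = 0.0236), in Cbr2 by 4.03 ± 0.828 (0.0124) and in Apod by 6.64 ± 0.759 (0.000119), where 3.77% of 12843 genes were called, 3.30% as higher, but not detectably in Folr2 (1.42, 0.489) or Pf4 (0.43, 0.86). With the replicate block the Lyve1 difference was 2.98 (adjusted p = 0.0617). Without brain positive sample 2 it was 1.66 (adjusted p = 0.394) and that of Cbr2 2.48 (0.185), while that of Apod was 6.22 (0.000536), that of Folr2 0.16 and that of Pf4 -0.95. With the block Pf4 stood at -0.04. Bone was lower in Lyve1 by -3.84 ± 1.21 (0.0272) and higher in Igfbp4 by 1.73 ± 0.517 (0.0215), against 31.5% of genes called in bone, 11.8% as lower and 19.7% as higher. The bone Lyve1 call was lost without bone positive sample 1 (-4.07, 0.0519), 3 (-3.45, 0.0916) or 4 (-3.52, 0.0847), and the Igfbp4 call without bone positive sample 3 (1.45, 0.107) or 4 (1.57, 0.0836).

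Lung was lower in Igfbp4 by -2.38 ± 0.653 (edgeR adjusted p = 0.0321, with 10.5% of genes called, 3.82% as lower), a call that was lost without lung positive sample 2, 3 or 4 (0.118, 0.109 and 0.0708). Lung Pf4 missed the threshold (1.86 ± 0.869, 0.179; 2.91, 0.0433 with the block) while Ppbp, the other abundant platelet chemokine, was higher there by 4.64 ± 0.796 (0.00161). In liver no member was called, with Folr2 at 2.60 ± 0.967 (0.251) and Apod at -4.80 ± 1.25 (0.0625; 0.0347 and 0.0362 without bone positive sample 3 or 4), where 2.22% of genes were called. Whether the biotin difference itself differed between tissues was tested as an interaction of each tissue against the mean of the others, and no member was called. In brain the estimates were 3.70 ± 1.32 for Lyve1 (0.255), 3.45 ± 1.29 for Apod (0.28) and 3.01 ± 1.26 for Cbr2 (0.34), and in liver -4.10 ± 1.70 for Apod (edgeR adjusted p = 1), with 0.301% of 13963 genes called in brain, 2.54% in lung and 0% in bone and liver. Without brain negative sample 2 the brain interaction of Apod was 6.45 (adjusted p = 0.0359).

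Ordered by level over clusters with at least 10 cells in at least 2 samples of a tissue and sort, the members parted company. Lyve1 was highest in endothelial cells, at 2337 ± 1857 CPM (SD, n = 2) in the Ly6c1-led endothelial cluster of positive lung and 2194 ± 980 (n = 3) and 1906 ± 911 (n = 4) in the Clec4g-led endothelial cluster of positive and negative liver. The Ptgds-led macrophages followed, at 1084 ± 325 (n = 4) in positive and 683 ± 269 (n = 3) in negative brain; the range of the positive samples overlapped with the endothelial ranges, and that of the negative samples lay below them. A gap then separated them from all other ranked clusters, the next being 72.3 ± 83.0 in the MHC class II-led cluster of positive brain. Lyve1 by itself thus did not single out macrophages in lung and liver.

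Folr2 was highest in the Cd5l-led liver macrophages, at 413 ± 179 (SD, n = 2) in negative and 407 ± 37.5 (n = 3) in positive liver, which overlapped. The Ptgds-led brain macrophages came next at 273 ± 62.3 (n = 4) and 234 ± 58.5 (n = 3), and then the Spp1/Ppbp cluster of positive liver at 98.1 ± 68.1 (n = 3), the IIA macrophages of positive bone at 98.0 ± 43.7 (n = 6) and the Spp1/Ppbp cluster of positive lung at 80.2 ± 37.9 (n = 4), which overlapped. All clusters in this upper part of the Folr2 order were macrophage clusters or the Spp1/Ppbp cluster. Cbr2 was highest in the Ptgds-led brain macrophages, at 463 ± 76.6 (n = 4) in positive and 383 ± 98.9 (n = 3) in negative brain. The Spp1/Ppbp cluster of positive liver at 104 ± 57.1 (n = 3) and the IIA macrophages of positive samples at 100 ± 65.2 (n = 6) came next and overlapped. Cbr2 was near 0 in the Cd5l-led liver macrophages, at 1.31 ± 2.27 (n = 3) in positive liver.

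Among the ranked clusters, Apod was highest in the Ly6c1-led endothelial cluster of positive brain, at 2137 ± 1616 (SD, n = 2). The Ptgds-led macrophages of positive brain followed after a gap at 230 ± 184 (n = 4). Next came the Clu-led progenitor cluster of positive bone at 208 ± 235 and the stromal cluster of positive IIA bone at 113 ± 82.2. The Clu-led cluster of positive brain, with 10 cells in too few samples to be ranked, gave 763 Apod UMIs from 30 cells. In positive brain the endothelial cluster gave 719 from 65 cells and the Ptgds-led macrophages 1189 from 764. The brain negative Ptgds-led macrophages lay at 27.4 ± 12.4 (n = 3). Igfbp4 was highest in the IIA stromal cluster, at 1194 ± 158 in positive and 762 ± 258 in negative samples. The Clec4g-led liver endothelium (579 ± 122 in negative, 538 ± 94.8 in positive liver) and the IIA granulocyte precursors (466 ± 33.5 in positive, 410 ± 60.6 in negative samples) came next, and the Ptgds-led macrophages of positive brain stood at 147 ± 55.6. Neither of these 2 genes was therefore highest in a macrophage cluster.

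Single cells of the Ptgds-led brain cluster often held several members. With 764 positive cells, Pf4 was found in 85.6% ± 5.98 of a sample's cells, Cbr2 in 60.7% ± 5.40, Lyve1 in 59.0% ± 11.9, Folr2 in 36.4% ± 6.25, Igfbp4 in 31.4% ± 6.17 and Apod in 24.0% ± 18.2 (SD, n = 4). After thinning each cell to 1500 UMIs the shares were 75.7%, 46.9%, 56.3%, 26.8%, 17.4% and 16.3% in the same order. Neutrophils of positive brain, which should lack these genes, had a Pf4 UMI in 1.56% ± 3.12 of cells, Cbr2 in 0.431% ± 0.862 and no Lyve1, Folr2 or Igfbp4, at sample medians of 3749 to 5654 UMIs per cell against 2728 to 4142 in the Ptgds-led cells. Elsewhere neutrophils did hold some Lyve1: a neutrophil cluster gave 40 of the 78 Lyve1 UMIs of negative bone, from 2196 cells. Another gave 38 of the 78 Lyve1 UMIs of the negative IIA samples, from 3359 cells. Microglia of positive brain had Lyve1 in 1.44%, Cbr2 in 1.16%, Pf4 in 2.33% and Folr2 in 0.0820% of cells.

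Lyve1, Folr2 and Cbr2 were found together in 199 of the 764 positive Ptgds-led cells (26.0%), 34 cells held all 6 members, 524 held at least 3, and 22 held none (2.88%). In the Cd5l-led cells of positive liver only 3 of 976 (0.307%) held Lyve1, Folr2 and Cbr2 together, and in the Spp1/Ppbp cells of positive lung 35 of 724 (4.83%). Among thinned Ptgds-led cells of the 3 positive samples with enough of them, Folr2 was found in 29.4% of cells with and 11.7% of cells without a Lyve1 UMI, and Cbr2 in 50.1% and 33.2%, each higher in 3 of 3 samples. Apod was found in 25.2% and 27.1%, higher in 0 of 3 samples. In the IIA macrophages Folr2 was found in 19.6% of cells with and 1.42% of cells without a Pf4 UMI, higher in 5 of 5 samples. These shares describe cells of 1 cluster and carry no test.

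Pf4 needs to be read beside platelet genes, since platelets carry its RNA and can stick to other cells. Ppbp, which encodes the platelet chemokine NAP-2 precursor, was nearly absent where Pf4 marked brain macrophages: in the Ptgds-led cells of positive brain Pf4 stood at 2106 CPM in the pooled cells and Ppbp at 1.01, from 3 UMIs. In the 742 of 764 cells without a UMI of any of 6 platelet genes (Ppbp, Gp9, Itga2b, Treml1, Gp1bb and Clec1b), Pf4 was 2061. Over all kept brain cells Ppbp was at most 1.73 in any positive sample, and the brain Pf4 difference without platelet-bearing cells was 4.57 (edgeR adjusted p = 0.048).

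In the Spp1/Ppbp cluster Pf4 and Ppbp were both high. In positive lung Pf4 stood at 8072 and Ppbp at 798, from 7617 UMIs, and Pf4 was 4735 in the 429 of 724 cells without a platelet-gene UMI; in negative lung the 3 values were 3331, 380 and 2445, and in positive liver 4185, 211 and 3243. Gng11, another platelet gene, was at 7.86 in the positive lung cells. In the IIA macrophages of positive samples Pf4 was 3886 and Ppbp 194, and Pf4 was 2701 in the 743 of 867 cells without a platelet-gene UMI, against 111 and 83.1 in negative samples. In each of these sets the Pf4 level was lower in the cells without platelet-gene UMIs than in all cells; the part of platelet RNA in the full levels was not tested.

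Other clusters carried Pf4 with megakaryocyte genes. An unnamed IIA cluster led by Mcpt8, Gata2 and Cpa3, with Itga2b among its leading genes, gave 46.0% of positive IIA Pf4 UMIs, and its positive cells had Pf4 at 14277, Itga2b, the integrin chain of the platelet fibrinogen receptor, at 1380, Itgb3 at 684 and Gp1bb at 299. In its 44 of 105 cells without a platelet-gene UMI, Pf4 was 286. The Clu-led progenitor cluster gave 73.0% of Pf4 UMIs in negative bone: its Pf4 was 1432 in all cells and 4.61 in those without a platelet-gene UMI, with 584 and 10.8 in positive bone. In both clusters Pf4 thus sat in the cells that also held platelet genes, unlike in the Ptgds-led brain macrophages. In liver, the split by platelet genes removed 701 of 976 Cd5l-led cells, since these macrophages held Clec1b at 367 CPM, and the remaining 275 cells had Pf4 at 648 beside 372 in all.

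**Figure D5:**
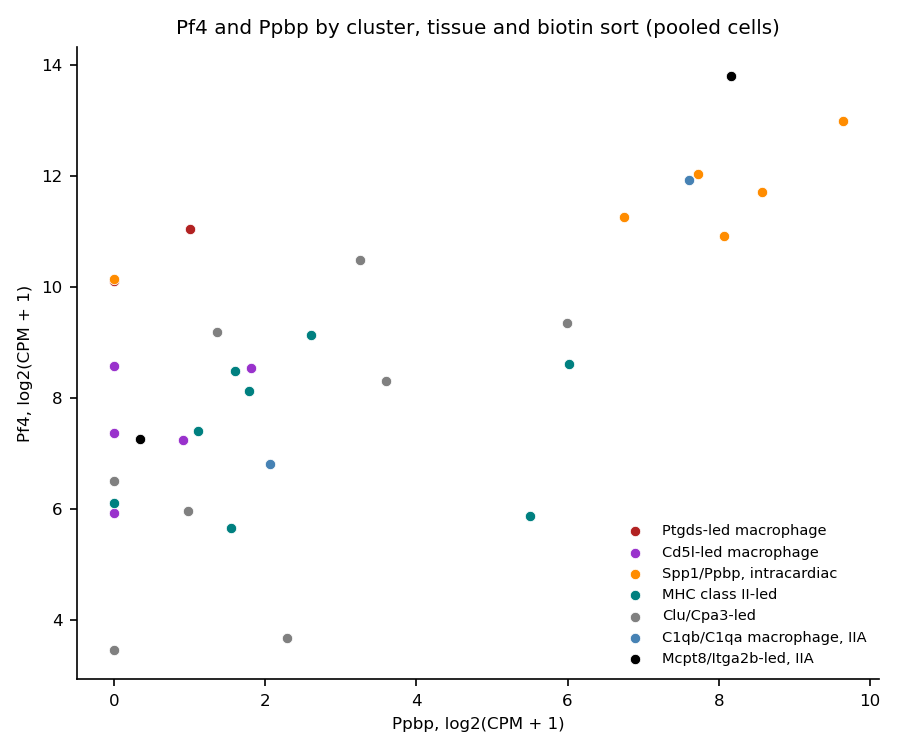
Pf4 against Ppbp, both as log2 of CPM plus 1 in pooled cells, 1 point for each cluster, tissue and sort, coloured by cluster. The Ptgds-led brain macrophages lie high on Pf4 (2106 in positive brain) with Ppbp at 1.01, while the Spp1/Ppbp cluster of positive lung has 8072 and 798. The Ptgds-led point of negative brain lies under an Spp1/Ppbp point where Ppbp is 0.

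In the unnamed cluster led by H2-Eb1, H2-Ab1 and H2-Aa, which encode MHC class II chains for antigen presentation, Pf4 rose in biotin positive brain cells. It read 508, 310, 293 and 354 in positive samples 1 to 4 and 52.5, 93.7, 54.1 and 40.6 in negative samples 1 to 4, without overlap (2.52 ± 0.277, edgeR adjusted p = 0.00352). It was the 1 gene of 5435 that was called (0.0184%), in a comparison added after the data had been seen, and all of its 14 alternatives kept the call. Ppbp stood at 2.03 in the pooled positive cells, and Pf4 was 355 in all and 337 in those without a platelet-gene UMI. Cbr2 differed by 2.12 ± 0.396 (adjusted p = 0.26) and Igfbp4 by 1.3 (0.502). Lyve1, Folr2 and Apod, too sparse to be tested, had 58, 36 and 42 UMIs in the 142 positive cells. In the 490 negative cells they had 11, 7 and 21.

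The same cluster gave no call of Pf4 elsewhere. In liver it read 587, 909 and 226 against 37.8, 106, 20.2 and 0 (3.49 ± 0.657, edgeR adjusted p = 0.113), in bone it differed by 2.57 (0.435) and in lung by 1.48 (0.791; -0.41 without positive sample 2). Liver and bone had 0% of genes called by edgeR, with 825 of 7418 and 438 of 4043 genes at an unadjusted p under 0.05 and 43 and 40 called by DESeq2, and lung 0.110%. With the replicate block Pf4 had adjusted p-values of 2.57e-13 in liver and 0.0399 in bone, with 383 and 11 genes called, and Cbr2 in brain 0.016, with 61.

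Other genes had patterns like those of the members over 133 levels, each a cluster in a tissue and sort, among 8539 genes. Pearson correlations of log2 of CPM plus 1, given as a description since levels share libraries, were highest for Lyve1 with Dchs1 (0.757), Fkbp14 (0.751) and Stab1 (0.740), a scavenger receptor of macrophages and sinusoidal endothelium. Folr2 was most like Cd163 (0.780), the haemoglobin scavenger receptor, then Ccl24 (0.771) and Siglec1 (0.769). Cbr2 was most like Ms4a7 (0.816), Ccl8 (0.805) and Ccl12 (0.798), and Pf4 like C3ar1 (0.771), Cxcl14 (0.754) and Dab2 (0.750). Apod had its highest value with Wnt5a (0.664). Between members, Folr2 and Cbr2 correlated at 0.723, Cbr2 and Pf4 at 0.680 and Folr2 and Pf4 at 0.674, while Lyve1 stood at 0.536 with Folr2, 0.493 with Cbr2 and 0.162 with Apod.

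A list of 28 other genes of resident perivascular macrophages, which leaves the members out, moved with them in brain. This list was chosen with earlier results of these data known, and the sorts held different phagocyte clusters. Its counts are therefore a description and no independent support. Over all brain cells 9 of its 28 tested genes rose and none fell, with a median of 3.23 on the log2 scale beside -0.03 over all genes, of which 2.88% rose. Among brain phagocytes 24 of 26 rose and none fell, with a median of 4.09 beside 0.02 over all genes, of which 20.2% rose. Those that rose in brain phagocytes included Gas6 (4.84, edgeR adjusted p = 0.000787), a ligand of TAM receptors in the clearance of dead cells, Mrc1 (4.74, 0.00664), the mannose receptor, Cd163 (4.73) and Fcna (4.58), a ficolin. In liver phagocytes 9 of 23 rose, with a median of 2.38 beside 0.03 and 3.49% of all genes called, among them Timd4 (5.10) and Gas6 (4.71). In bone phagocytes 1 of 19 rose, beside 0.0855% of all genes called, and in lung phagocytes 9 rose and 7 fell of 19, beside 47.8% of all genes called. In IIA phagocytes 15 of 20 rose and 1 fell (2.66 beside -0.03), where 15.7% of all genes rose, among them Gas6 (8.20), Ccl8 (7.26), Fcna (6.99) and Mrc1 (5.42). The list of 12 MHC class II macrophage genes gave 2 higher and 1 lower of 11 in brain phagocytes, 5 and 1 of 12 in IIA phagocytes, and 0 and 4 of 12 in lung phagocytes.

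Genes that act on the same ligands as the members were counted from fixed lists, beside 40.7% of all genes called in brain phagocytes (20.2% higher) and 50.2% in the IIA samples (27.0% higher). Of 5 folate genes tested in brain phagocytes, 2 rose and 1 fell; Mthfd1 rose by 0.84, and Ggh, which cleaves polyglutamate tails from folate, fell by 1.03. In the IIA samples 5 of 9 folate genes rose and 1 fell, with Slc19a1, the reduced folate carrier, higher by 1.46. Of 4 hyaluronan genes tested in brain phagocytes, the receptors Cd44 and Hmmr fell by 2.65 and 2.36, and Tlr4 rose by 0.98. Of 3 insulin-like growth factor genes tested in brain phagocytes, 2 rose and 1 fell: Igf1 rose by 5.43 ± 0.636 in brain phagocytes (edgeR adjusted p = 0.000367) and by 4.79 over all brain cells (0.0192), the receptor Igf1r rose by 0.91 and Igfbp6 fell by 2.72. In the IIA samples Igfbp5 (6.01), Igf1 (4.82) and Igfbp7 (2.64) rose, 3 of 6 tested. Of the 16 platelet genes, none could be tested in brain phagocytes, 1 of 4 rose over all brain cells (3.06% of all genes called), 2 of 7 rose and 2 fell in lung (18.3% called), and 4 of 8 rose and 1 fell in the IIA samples.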

How the data were processed

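Per the labels' protocols, tissues were digested, biotin positive and negative cells were sorted, and cells were multiplexed with CellPlex or TotalSeqC hashtags. The authors deposited filtered UMI count matrices, made with Cell Ranger 6.1.2 for the 32 intracardiac samples and 7.1.0 for IIA, per the file headers. The submitters' processing notes name mm10, Cell Ranger and Seurat. The labels' protocols state no strand, doublet or ambient RNA correction.

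From the counts, cells with at least 500 UMIs, 200 genes and at most 15% mitochondrial UMIs were kept: 55366 of 57065 intracardiac cells, and 22362 of 22685 IIA cells that were assigned a hashtag (of 26666), which needed 10 counts and 3 times the next tag. Hashtags were matched to samples by their number. Doublets were scored and left in, with an alternative without the top 5%. Scanpy 1.11.5 clustered each experiment (2000 variable genes without the members, 30 components, 15 neighbours, Leiden resolution 1.0; 32 and 21 clusters, of which 25 and 17 were named from marker lists). Counts were summed per sample for sets of at least 10 cells and fitted with edgeR 4.0.16 (TMM, filterByExpr, quasi-likelihood test, two-sided, Benjamini-Hochberg over all genes tested, threshold 0.05). DESeq2 1.42.0, other scaling, no filter, the replicate block, platelet-bearing cells and left-out samples were alternatives. The fits were tested on simulated data. A count of 0 allows 3 counts, which covers counting error only.

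Same-numbered samples correlated in their deviations from the group means in bone (0.448 to 0.738), brain (0.213 to 0.629) and liver (0.256 to 0.501), which pairs them, but not in every pair of lung (lowest -0.0916) or IIA (lowest 0.0778). The numbers come from the sample titles. The 6 members and all gene lists were chosen with earlier results of these data known. The members were named in full, and other genes by their size of change among called list genes and by Pearson correlation over clusters. Some list genes are not reported here.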

Additional observations from a re-analysis of the deposited data

Results flagged for a closer look

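In 60 groups of 4 to 6 samples, 1 for each of the 6 genes by tissue and sort, 10 held a sample whose distance to its nearest neighbour was large for the range of its group; chance gives about 1 in 20 groups. Brain positive sample 2 stood out in 3 of them, with Lyve1 at 983 CPM (next 104), Folr2 at 149 (32.1) and Cbr2 at 372 (55.7); in that sample 74.8% of cells were Ptgds-led macrophages. Liver positive sample 2, with 80.1% Cd5l-led macrophages, stood out in Folr2 at 347 (next 31.8). IIA positive sample 2, with 52.6% macrophages, did so in Folr2 at 76.1 (24.2).

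Apod accounted for 3 more: brain negative sample 2 at 24.6 (next 1.14), IIA positive sample 3 at 32.3 (9.04) and IIA negative sample 2 at 2.66 (0.623). The remaining ones were Folr2 in lung negative sample 2 at 4.25 (next 0.857) and Igfbp4 in lung negative sample 1 at 42.6 (9.43). The part of cell makeup in these values was not tested.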

How the results depend on the processing

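No called difference of a member changed direction in its alternatives, while 50 of the values under alternatives to differences that were not called had the other sign. Numbers of called genes moved by over 1.5 times as follows; the cause was not tested. DESeq2 called 120 genes in bone, 1565 in brain and 560 in liver over all cells (0, 339 and 0 by edgeR), 181 and 872 in bone and liver phagocytes (8 and 342), 1 and 102 in liver and lung macrophages (0 and 17), 964, 561 and 2276 for brain, liver and lung against other positive tissues (484, 285 and 1348), 4, 213, 18 and 603 for the interactions of bone, brain, liver and lung (0, 42, 0 and 355), 116 and 38 in the Spp1/Ppbp cluster of lung and liver (15 and 4), and 40, 17, 43 and 55 in the MHC class II-led cluster of bone, brain, liver and lung (0, 1, 0 and 6). Without a filter the calls were 517 in brain, 379 and 919 in bone and liver phagocytes, 10, 10 and 105 in brain, liver and lung macrophages, 785 for liver against other tissues, 12 in the Ptgds-led cluster, 301 and 233 in the Spp1/Ppbp cluster of lung and liver, and 259, 105, 284 and 142 in the MHC class II-led cluster. With the replicate block they were 17, 869 and 2 in bone, brain and liver, 207 and 644 in bone and liver phagocytes, 33 and 83 in brain and liver macrophages, 15, 151, 2 and 858 for the interactions, 1 in the Ptgds-led cluster, 443 and 306 in the Spp1/Ppbp cluster, and 11, 61, 383 and 98 in the MHC class II-led cluster. Clustering at resolution 0.5 gave 32 and members among the clustering genes 31 in bone phagocytes, and the latter gave 6 in IIA macrophages (1145). Without platelet-bearing cells the calls were 5 in liver phagocytes, 0 in lung macrophages, 47 for liver against other tissues, and 1 each in the Spp1/Ppbp and MHC class II-led clusters of liver; without the top 5% of doublet scores they were 30 in lung macrophages and 1 each in the liver Spp1/Ppbp and lung MHC class II-led clusters.

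Leaving out 1 sample gave 0 to 0 calls in bone, 3 to 758 in brain, 0 to 61 in liver, 1280 to 2381 in lung and 5592 to 6854 in IIA; 0 to 115, 3008 to 3652, 0 to 2934, 4071 to 4785 and 1955 to 3297 in the phagocytes of bone, brain, liver, lung and IIA; 0 to 0, 0 to 0, 12 to 47 and 713 to 1357 in macrophages of brain, liver, lung and IIA; 1421 to 4947, 196 to 759, 194 to 471 and 611 to 2101 for bone, brain, liver and lung against other tissues; 0 to 0, 9 to 315, 0 to 6 and 143 to 604 for the interactions; 0 to 0 in the Ptgds-led cluster, 0 to 19 and 0 to 64 in the Spp1/Ppbp cluster of lung and liver; and 0 to 80, 1 to 2, 0 to 2 and 0 to 20 in the MHC class II-led cluster of bone, brain, liver and lung.

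The block, where samples were not paired, gave adjusted p = 0.0665 for Cbr2 (1.91), 0.032 for Folr2 and 0.0169 for Lyve1 in lung, 0.0617 for Lyve1 (2.98) in brain against other tissues, 0.0433 for Pf4 (2.91) in lung against other tissues, 0.0295 for Apod in the brain interaction and 0.00335 for Pf4 in the MHC class II-led cluster of lung. In bone, brain and liver it changed no call of a printed value beyond those given with the results. The lung macrophage calls rest on 1 negative sample. A macrophage comparison in bone was not run, as no negative sample held 10 cells, nor the block in lung macrophages. In several sets of cells Lyve1, Folr2, Cbr2, Apod and Igfbp4 had counts under the filter and were not tested; depth and low expression cannot be told apart there.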
